A study of Mus musculus with 12 samples.

Results

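Hedgehog signalling in the mouse colorectum was examined through 8 of the 30139 genes or transcripts on the array: the ligand genes Shh and Ihh, the receptor gene Ptch1, the decoy receptor gene Hhip, the transducer gene Smo, and the transcription factor genes Gli1, Gli2 and Gli3. Their probes were matched by gene name, and 12 probes read them. The genes were chosen with earlier results of these data known. The tissues were polyps of Apc+/Δ716 mice, macroscopically normal colorectal tissue of the same Apc+/Δ716 mice, and normal colorectal tissue of wild-type mice, with 4 arrays in each group. All mice were 14-week-old C57BL/6N females. The Apc mutants are heterozygous for a truncating allele of Apc, a gene whose protein restrains Wnt signalling, and the labels also write their genotype as Apc+/-. Polyps and normal tissue came from mice 103, 106, 107 and 110, and wild-type tissue from mice 102, 104, 105 and 108. The labels do not say whether a polyp sample was 1 polyp or several, or how much of the bowel wall each sample held.

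Hedgehog ligands are secreted proteins that bind Ptch1 on receiving cells. Binding lifts the block that Ptch1 places on Smo, and Smo then lets Gli proteins switch on target genes, among them Gli1, Ptch1 and Hhip, whose proteins in turn hold the ligand back. In the colon Ihh is made mainly by differentiated epithelial cells, and the receiving cells lie mostly in the mesenchyme, where smooth muscle and fibroblasts carry Ptch1 and Gli1. The transcripts of sender and receiver therefore come from different cells, and in bulk tissue such as this fewer cells of a type and less RNA per cell cannot be told apart.

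A level below is the log2 of a probe's processed signal minus the 75th percentile of its array (log2 scale), so that levels can be compared between arrays for 1 probe but not between probes. A gene's level is that of its brightest probe. The scanner software called 64.6% to 73.8% of spots per array well above background, and no spot was saturated. The 75th percentile itself was 11.06 to 11.20 on polyp arrays, 10.60 to 10.76 on Apc normal arrays and 10.52 to 10.73 on wild-type arrays (log2 signal). Differences were tested with limma over 20061 genes, those detected (well above background) throughout at least 1 of the 3 groups, with a threshold of 0.05 on the Benjamini-Hochberg adjusted p. That test covered 6 of the 8 Hedgehog genes. Shh and Gli2 did not pass this filter and are described from their own signals. The number of arrays limits the precision, and wild-type arrays all lay on slide 1 while Apc arrays lay on slides 2 and 3, so slide and genotype cannot be told apart. All 9 general epithelial markers were detected on all 12 arrays.

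The probes that carry the main results are shown by 30 of their 60 bases, because each level below is the reading of 1 such stretch and the Smo probes differ in sequence in a way that accompanies their readings. Capitals mark the longest unbroken alternation of C and A in the brighter Smo probe, and shorter runs stay in lower case. Positions are those of the scanner files (mm9), and the place of the probes within each transcript was not annotated here.
Shh, chr5:28783983-28784042, minus strand: aatttattattgtgtgaactgtactcacag
Ihh, chr1:74991906-74991965, minus strand: gagggggaaatccatgggagaattttggga
Hhip, chr8:82494280-82494339, minus strand: gcagtagccttcatctgtaggttaatagtc
Gli1, chr10:126766967-126767026, minus strand: ggggctgtatttagtctatgtatgttccag
Smo, brighter probe, chr6:29710919-29710978, plus strand: gcaatgagcacacacagACACACACACACA
Smo, second probe, chr6:29711225-29711284, plus strand: aatgtctagtcattttcatagtgccccaca
The probes of the related ligand genes Shh and Ihh share no stretch longer than 7 bases.

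The first comparison asked how polyps differ from normal tissue of the same mice. Ihh, Hhip, Gli1 and Gli3 were lower in polyps, Shh was detected in 3 of 4 polyps and in no normal tissue, and Ptch1 did not pass the test. Of the 6 tested Hedgehog genes, 0 rose and 4 fell, against 45.4% of all tested genes that were called, 20.6% that rose and 24.9% that fell. The 4 genes that fell were also those, of the 6, whose polyp and Apc normal levels did not overlap, against 45.2% of all tested genes. The median difference of the 6 genes was −1.54, against −0.06 over all tested genes. The counts and the median took Smo from its brighter probe, whose fall did not pass. On its second probe Smo rose (0.62 ± 0.10, limma adjusted p = 0.00140 over 26078 probes).

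**Figure D1:**
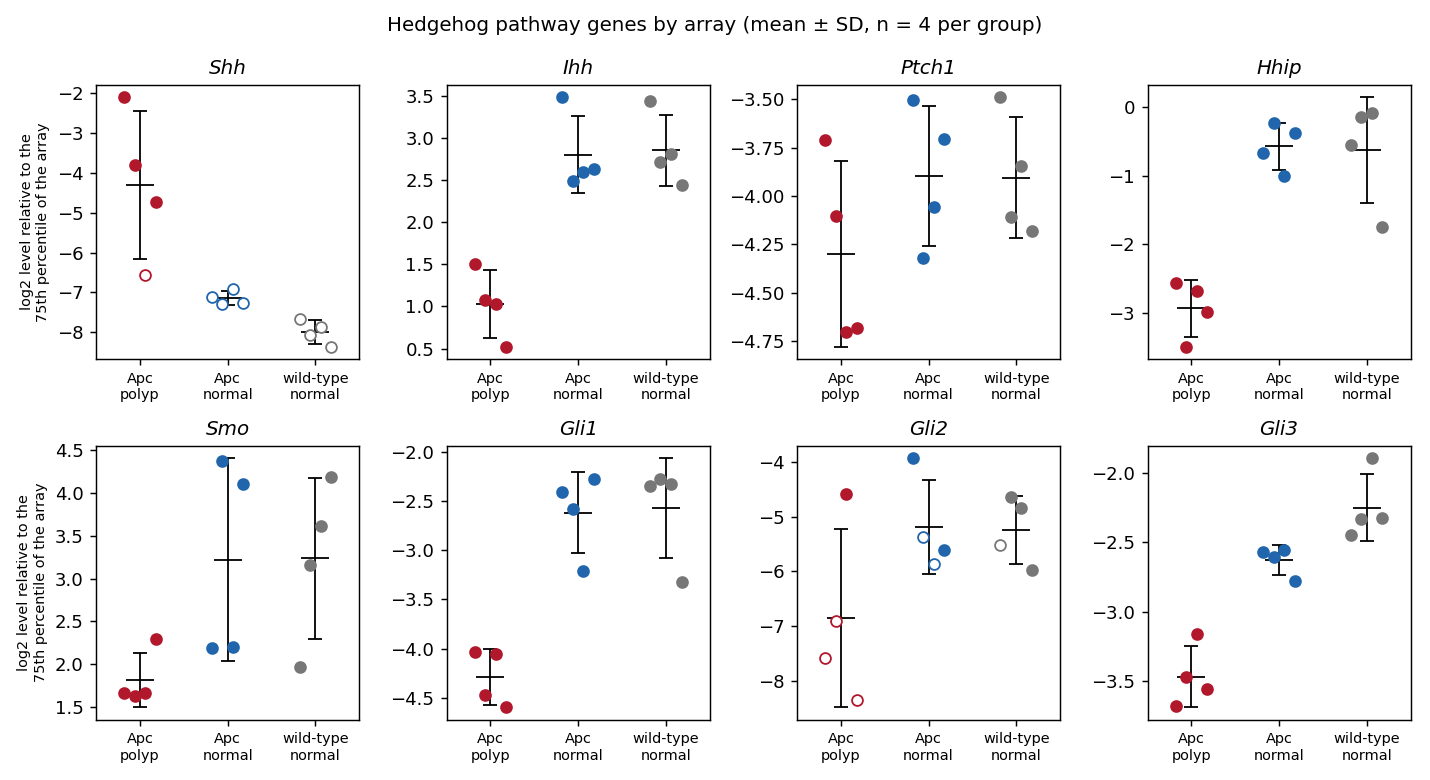
Log2 level after subtracting each array's 75th percentile (y axis, a separate range for each gene) of the 8 Hedgehog genes in Apc polyp, Apc normal and wild-type normal tissue. Points are arrays, filled where the probe was well above background and open where it was not, and lines give the mean ± SD (n = 4). The polyp points of Ihh, Hhip, Gli1 and Gli3 lie below all normal points, and Shh was well above background in 3 polyps only.

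Ihh, the main Hedgehog ligand of the colon epithelium, stood at 1.50, 1.07, 1.02 and 0.52 in the polyps of mice 103, 106, 107 and 110, and at 3.48, 2.48, 2.60 and 2.63 in their normal tissue. The groups did not overlap, and the normal tissue of mouse 103 was the highest. Ihh was 3.41-fold lower in polyps (−1.77 ± 0.27, difference ± SE, limma adjusted p = 0.00137). Within a mouse the polyp was lower in 4 of 4 pairs, by log2 differences of −2.11 to −1.41. Within slide 2 alone, which held mice 103 and 106, the difference was −1.70 and the call was lost (adjusted p = 0.0660).

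Shh, a ligand gene that is scarcely expressed in the normal colon, behaved in the opposite way. Its probe is spotted 10 times on the array, and its level was −2.11, −3.81, −6.58 and −4.72 in the polyps of mice 103, 106, 107 and 110, against −7.12, −7.28, −6.91 and −7.26 in their normal tissue and −7.67, −8.06, −7.88 and −8.36 in wild-type tissue. All 10 spots were well above background in the polyps of mice 103, 106 and 110. The polyp of mouse 107 had 0 of 9 usable spots above background, and every normal array also had 0. Shh transcript was therefore measured in 3 of 4 polyps, highest in that of mouse 103, and was not well above background elsewhere.

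With normal tissue below background only an approximate bound can be given. Set against the lowest signal counted as above background, Shh came out 2.67-fold higher in polyps than in Apc normal tissue and 3.06-fold higher than in wild-type tissue. The polyp mean holds mouse 107 at its own level of −6.58, which was not well above background, so these are not strict lower limits. These values also depend on single polyps. Without the polyp of mouse 103 they were 1.61-fold against Apc normal and 1.84-fold against wild-type tissue. Without that of mouse 107 every polyp used was above background, and Shh was at least 4.52-fold and 5.17-fold higher. No test is given, because the signals of every normal array and of the polyp of mouse 107 were not measured above background.

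Ptch1, the receptor and itself a Hedgehog target, stood at −3.71, −4.10, −4.70 and −4.68 in polyps and at −3.51, −4.32, −4.06 and −3.71 in Apc normal tissue. The groups overlapped, and the polyp was lower in 3 of 4 mice. The difference was −0.40 ± 0.27 (limma adjusted p = 0.266), with a 95% confidence interval of −1.03 to 0.23, so that a fall of 1.03 or a rise of 0.23 on the log2 scale would both be compatible with these arrays. A second Ptch1 probe was not well above background on any of the 12 arrays.

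Hhip, the membrane-anchored decoy that binds Hedgehog ligands, had the largest fall among the 6 tested Hedgehog genes. Its levels were −2.56, −3.49, −2.68 and −2.99 in polyps, against −0.67, −0.23, −1.01 and −0.38 in Apc normal tissue, with no overlap. It was 5.12-fold lower in polyps (−2.36 ± 0.25, limma adjusted p = 0.000246), and lower in 4 of 4 mice by log2 differences of −3.26 to −1.67. A second Hhip probe was well above background on 4 of 4 Apc normal arrays and on 0 of 4 polyp arrays. It put Hhip at least 5.09-fold lower in polyps, a bound for which no test is given.

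Gli1, the transcription factor whose transcript is the usual read-out of Hedgehog activity, stood at −4.04, −4.47, −4.06 and −4.60 in polyps and at −2.41, −2.59, −3.21 and −2.27 in Apc normal tissue. Every polyp lay below every normal sample. Gli1 was 3.18-fold lower in polyps (−1.67 ± 0.23, limma adjusted p = 0.000810), or 2.01-fold lower after normexp and quantile normalization. The smallest difference within a mouse was −0.85, in mouse 107, whose normal tissue had the lowest Gli1 of its group. A second Gli1 probe was not well above background on any array.

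Gli3, the Gli protein known chiefly as a repressor, stood at −3.68, −3.47, −3.16 and −3.56 in polyps and at −2.57, −2.60, −2.55 and −2.78 in Apc normal tissue. It was 1.79-fold lower in polyps (−0.84 ± 0.13, limma adjusted p = 0.00152). The fall was smaller than those of Ihh, Hhip and Gli1 but was measured with a smaller error, and all 4 mice showed it. Within slide 3 alone, which held mice 107 and 110, Gli1 and Gli3 kept their sign (−1.59 and −0.69) but not their calls (adjusted p = 0.101 and 0.140).

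Gli2, the main activator of the family, was read near background. Its probe was well above background on 1 of 4 polyp arrays, 2 of 4 Apc normal arrays and 3 of 4 wild-type arrays. The levels were −7.58, −6.91, −4.58 and −8.36 in polyps, −3.93, −5.36, −5.86 and −5.62 in Apc normal tissue and −5.52, −4.63, −4.84 and −5.98 in wild-type tissue. The groups overlapped, and no fold change is given.

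**Figure D2:**
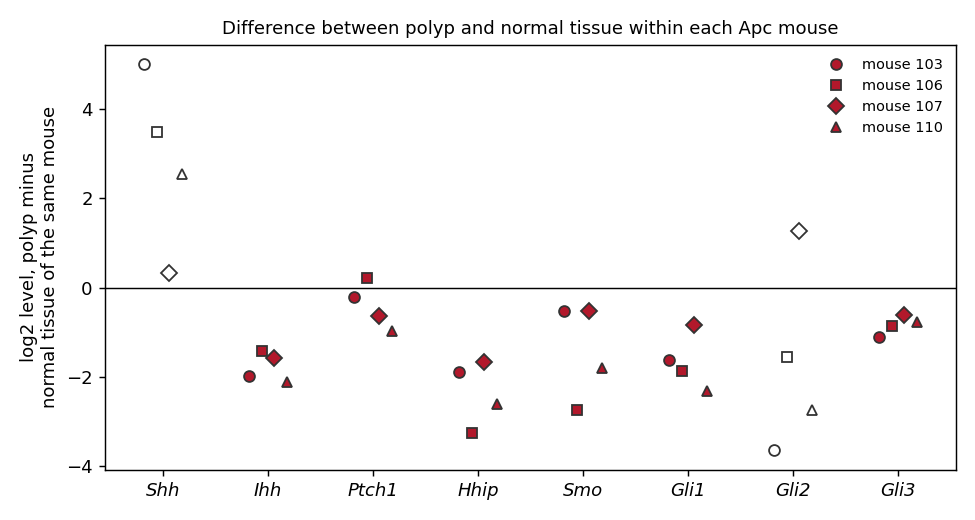
Log2 level of the polyp minus that of normal tissue of the same mouse (y axis) for the 8 Hedgehog genes (x axis), with 1 symbol for each of the 4 Apc mice. Open symbols mark Shh and Gli2, which were near background. All 4 differences lie below 0 for Ihh, Hhip, Gli1 and Gli3, and for Smo on its brighter probe.

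Smo, the transducer released by Ptch1, gave opposite readings on its probes. The brighter probe stood at 1.67, 1.63, 1.67 and 2.29 in polyps and at 2.19, 4.38, 2.21 and 4.11 in Apc normal tissue, with the normal arrays of mice 106 and 110 far above those of mice 103 and 107. The difference was −1.40 ± 0.54 and did not pass the test (limma adjusted p = 0.0638, or 0.0469 with the mouse as a block). The second probe stood at 1.83, 1.70, 1.67 and 1.62 in polyps and at 1.19, 1.10, 1.04 and 1.01 in Apc normal tissue.

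On that second probe Smo was 1.54-fold higher in polyps (0.62 ± 0.10, limma adjusted p = 0.00140 over 26078 probes). The groups did not overlap, and the differences within the 4 mice were 0.61 to 0.64. Against wild-type tissue, where the probe read 1.22, 1.41, 1.49 and 1.27, polyps were 0.36 ± 0.09 higher (adjusted p = 0.0109). The brighter probe was 2.67-fold lower in polyps than in wild-type tissue (−1.42 ± 0.43, adjusted p = 0.0215), which was not past the test without the polyp array of mouse 106 (0.0531), without the wild-type array of mouse 105 (0.0575), or with the mean over both probes (−0.53, 0.0787).

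The probes differ in 1 sequence feature that was measured on other probes too. The brighter one holds 13 bases of alternating C and A, and 54 other probes on the array hold such a run of at least 12 bases. Their median level was 0.49 to 0.78 on polyp arrays, 2.61 to 3.53 on Apc normal arrays and 2.38 to 3.15 on wild-type arrays. By group mean 49 of these 54 probes read lower in polyps than in the normal tissue of Apc mice, against 60.4% of all probes. Their median difference was −1.95, against −0.18 over all probes. Across the 12 arrays they correlated with the brighter Smo probe at a median r of 0.763, against 0.136 for all other probes, over arrays that fall into polyp and normal clusters. The part of the repeat in the Smo reading was not tested. The direction of Smo in polyps depends on the probe, and no direction is given for the gene.

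**Figure D3:**
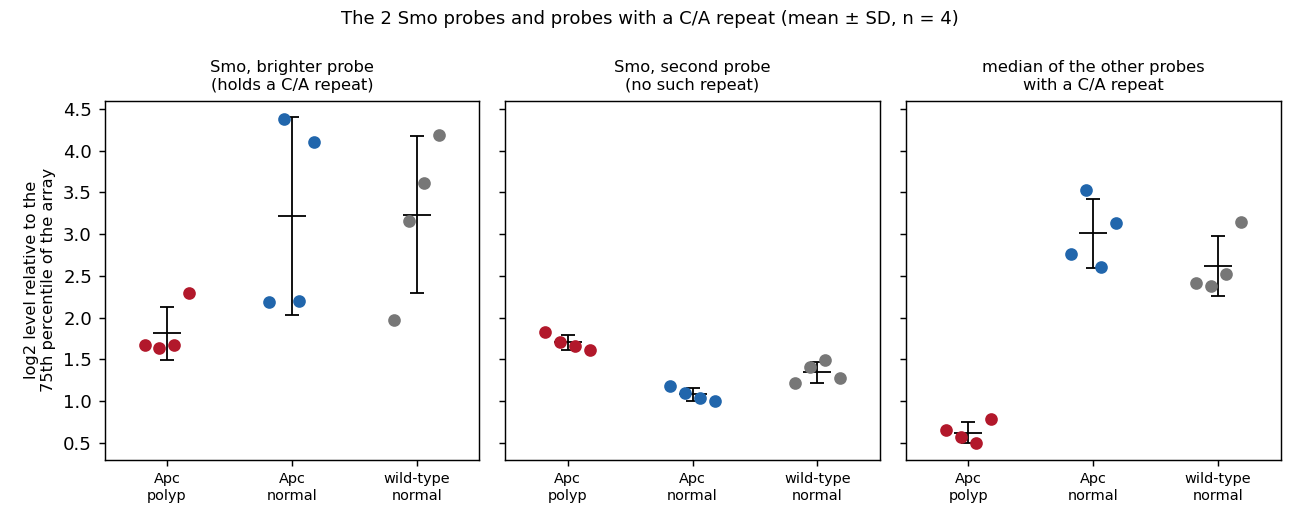
Log2 level after subtracting each array's 75th percentile (y axis) of the brighter Smo probe, the second Smo probe and the median of the 54 other probes with a run of alternating C and A, in Apc polyp, Apc normal and wild-type normal tissue. Points are arrays and lines give the mean ± SD (n = 4). The brighter probe and the repeat-holding probes are lower in polyps on average, while the second probe is higher in every polyp than in any normal sample.

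The second comparison asked whether normal tissue of Apc mutants differs from wild-type tissue. Of the 6 tested Hedgehog genes, 0 passed limma's test, against 0.244% of all tested genes (0.209% higher and 0.0349% lower), and 1 had an unadjusted p under 0.05, as had 17.2% of all tested genes. Ihh stood at 3.44, 2.71, 2.81 and 2.44 in wild-type tissue, Hhip at −0.55, −0.14, −0.09 and −1.74, Gli1 at −2.35, −2.28, −2.33 and −3.33 and Ptch1 at −3.49, −4.11, −3.85 and −4.18. Each range overlapped that of Apc normal tissue. The differences, Apc normal minus wild-type, were −0.05 for Ihh (95% confidence interval −0.70 to 0.60), 0.06 for Hhip (−0.80 to 0.92), −0.05 for Gli1 (−0.72 to 0.63) and 0.01 for Ptch1 (−0.50 to 0.52). Changes within these limits would be compatible with these arrays, and the limits are not the smallest change that the test could call.

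Gli3 came closest to the threshold. It stood at −2.45, −2.33, −1.89 and −2.32 in wild-type tissue, and all 4 Apc normal levels lay below these, a separation of groups seen in 10.3% of all tested genes. The difference was −0.38 ± 0.14, with an unadjusted p = 0.0265 and a limma adjusted p = 0.235. The brighter Smo probe stood at 1.97, 3.16, 3.62 and 4.19 in wild-type tissue and overlapped Apc normal tissue. Shh was not well above background on any array of either group, so that no order is given.

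The third comparison, polyps against wild-type tissue, shares its polyp arrays with the first. Of the 6 tested Hedgehog genes, 0 rose and 5 fell, against 60.3% of all tested genes that were called, 27.5% that rose and 32.8% that fell. The log2 differences were −1.82 ± 0.26 for Ihh (limma adjusted p = 0.000484), −2.30 ± 0.38 for Hhip (0.00111), −1.72 ± 0.26 for Gli1 (0.000644) and −1.22 ± 0.16 for Gli3 (0.000275). The fifth call was that of the brighter Smo probe, while the second Smo probe was higher in polyps (0.36 ± 0.09, limma adjusted p = 0.0109 over 26078 probes). Ptch1 did not pass (−0.39 ± 0.26, adjusted p = 0.218, 95% confidence interval −0.98 to 0.20). On its second probe Hhip was at least 4.51-fold lower in polyps than in wild-type tissue.

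Among the normal samples the Hedgehog genes also varied from mouse to mouse. Over the 8 normal arrays, Ihh and Ptch1 correlated most strongly among the 15 pairs of tested Hedgehog genes (r = 0.873, exact permutation p = 0.00315, adjusted p = 0.0472, and Spearman's rho = 0.833, exact p = 0.0154, adjusted p = 0.140). The correlation was 0.804 within Apc normal arrays and 0.968 within wild-type arrays (n = 4 each), and 0.642 without the 2 arrays farthest from the median of Ihh. Hhip and Gli1 had r = 0.871 (exact permutation p = 0.00875, adjusted p = 0.0657, with rho = 0.714, exact p = 0.0576 and adjusted p = 0.216), but r = 0.077 without the 2 arrays farthest from the median of Hhip. That relation rests on those arrays. The other pairs had adjusted p above the threshold by both measures.

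The gene most like Gli1 over the 12 arrays, among 20060 others, was Hhip (r = 0.976), followed by Shc4, an adaptor of the Shc family (0.966), and Plekha4, a pleckstrin-homology domain gene (0.966). Within the 8 normal arrays these values were 0.871, 0.754 and 0.791. Most of the likeness over 12 arrays lies between polyps and normal tissue, which form separate clusters, so these values describe a ranking and were not tested. The genes most like Ihh were Flcn, the folliculin gene (0.979), Dnajc13, an endosomal chaperone gene (0.976), and Snx9, a sorting nexin gene (0.972), with 0.878, 0.912 and 0.910 within normal arrays. Flcn averaged −0.15 ± 0.14 in polyps, 0.63 ± 0.21 in Apc normal tissue and 0.77 ± 0.23 in wild-type tissue (SD, n = 4 each).

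**Figure D4:**
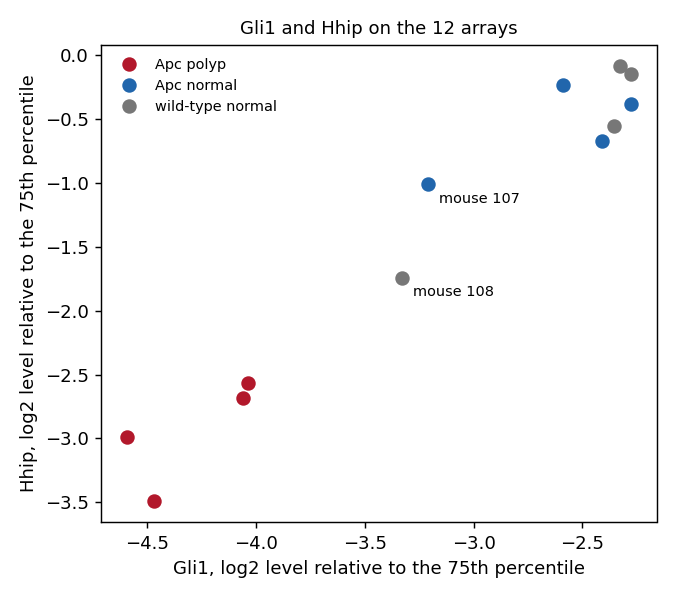
Log2 level of Hhip (y axis) against that of Gli1 (x axis), both after subtracting each array's 75th percentile, on the 12 arrays coloured by group. The 4 polyps lie at the low end of both axes, and the 2 lowest normal samples are the Apc normal array of mouse 107 and the wild-type array of mouse 108.

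Beyond the 8 genes, 41 further genes of the pathway were listed in 4 groups and 39 were tested. In polyps 13 were higher and 7 lower than in Apc normal tissue (background 20.6% and 24.9%), with a median difference of 0.11. Against wild-type tissue 14 were higher and 11 lower (background 27.5% and 32.8%), with a median of 0.06. The lists thus held genes that moved in both directions.

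Of the genes for making and releasing ligands, 6 were tested, and 3 rose and 2 fell in polyps relative to Apc normal tissue (background 20.6% and 24.9%). Scube2, a secreted protein that helps release Hedgehog ligands, fell to −5.06, −4.51, −5.04 and −4.61 in polyps, against −1.73, −2.13, −0.93 and −1.95 in Apc normal tissue, which is 8.70-fold lower (−3.12 ± 0.27, limma adjusted p = 0.000128). A second Scube2 probe read a difference of −0.27, so the size of this fall depends on the probe, and with the mean over probes it was 3.24-fold. Against wild-type tissue Scube2 was 14.8-fold lower on the brighter probe (−3.89 ± 0.22, adjusted p = 6.81e-06), and its second probe read −0.81. Disp2, a relative of the release transporter Disp1, was 5.60-fold lower (−2.49 ± 0.20, adjusted p = 0.000105), or 2.58-fold lower after normexp and quantile normalization. The Scube2 relative Scube1 stood at −1.54, −1.02, −1.14 and −1.82 in polyps, above every Apc normal level (−3.26, −2.98, −2.95 and −2.91), and was 3.13-fold higher (1.64 ± 0.19, adjusted p = 0.000372). Disp1 itself was higher by 0.68 ± 0.18 (adjusted p = 0.0168), a call lost without the polyp of mouse 106. Hhat, which attaches palmitate to the ligands, differed by −0.29 and did not pass (adjusted p = 0.418). Against wild-type tissue Disp2 was 8.49-fold lower (adjusted p = 8.25e-06) and Scube1 3.97-fold higher (adjusted p = 7.93e-05).

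The third Hedgehog ligand gene, Dhh, known from Schwann and Sertoli cells, stood at −3.92, −2.31, −1.95 and −2.59 in polyps and at −5.39, −3.45, −5.50 and −4.34 in Apc normal tissue. The groups overlapped, and Dhh was 3.94-fold higher in polyps (1.98 ± 0.56, limma adjusted p = 0.0217). This call was lost without any 1 of the Apc normal arrays of mice 103 and 107 or the polyp arrays of mice 106, 107 and 110, and adjusted p reached 0.365 over 22 alternative fits. Against wild-type tissue the difference was 2.12 ± 0.41 (adjusted p = 0.00253). Relative to both normal groups, Shh and Dhh thus had higher values in polyps while Ihh had lower ones.

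Of 5 tested receptors and co-receptors, 0 rose and 1 fell in polyps relative to Apc normal tissue (background 20.6% and 24.9%). Cdon, a co-receptor that presents ligand to Ptch1, was 1.94-fold lower (−0.95 ± 0.19, limma adjusted p = 0.00499) and fell on both detected probes. Against wild-type tissue 0 rose and 3 fell (background 27.5% and 32.8%). These were Cdon, by −1.39 ± 0.13 (limma adjusted p = 6.17e-05), the co-receptor gene Boc, by −0.64 ± 0.22 (0.0352), and Gpc3, a glypican that binds ligand away from Ptch1, by −2.27 ± 0.77 (0.0334). Gpc3 spread widely in polyps, at −5.36, −5.90, −1.93 and −3.98, and Gpc3 kept its call in 10 and Boc in 9 of 18 alternative fits. Both calls were lost without the polyp of mouse 103, 106 or 110 or the wild-type array of mouse 104, 105 or 108, and that of Gpc3 also without wild-type mouse 102. The difference of Gpc3 from Apc normal tissue (−1.83 ± 0.79, adjusted p = 0.0930) passed without the polyp of mouse 107, and without it that from wild-type tissue was −3.05. Gas1, a further co-receptor, had a difference of 0.40 from Apc normal tissue that did not pass (adjusted p = 0.535) but passed with the mouse as a block (0.0382), and it had the opposite sign on another probe (−0.23).

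Of 19 tested genes of intracellular transduction and the primary cilium, 5 rose and 3 fell in polyps relative to Apc normal tissue (background 20.6% and 24.9%). Tulp3, which carries receptors into the cilium and restrains the pathway, was 2.87-fold higher (1.52 ± 0.17, limma adjusted p = 0.000315), and Kif3a, a motor subunit that builds cilia, was 2.01-fold higher (1.01 ± 0.13, adjusted p = 0.000511). Iqce (adjusted p = 0.000684), Arrb2 (0.94 ± 0.21) and Ift88 (0.40 ± 0.11) also rose, and the call of Ift88 was lost when arrays were scaled to their median. Prkacb, a catalytic subunit of protein kinase A, which primes Gli proteins for processing, was 2.68-fold lower (−1.42 ± 0.16, adjusted p = 0.000310).

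Evc and Evc2, partners at the cilium base that relay the Smo signal, fell by 1.39 and 0.98 on the log2 scale (limma adjusted p = 0.000872 and 0.00543), while Iqce, which anchors them there, rose. Grk2, a kinase that acts on Smo, missed the threshold at −0.39 ± 0.14 (adjusted p = 0.0501) and passed in 7 of 22 alternative fits, with the mouse as a block among them (0.0256) and without the polyp of mouse 103 or the normal array of mouse 110. The other members with differences below 0, Arl13b (−0.13), Spop (−0.12), Ift172 (−0.07) and Prkaca (−0.07), did not pass. Sufu, the inhibitor that holds Gli proteins in the cytoplasm, differed by 0.11 ± 0.19 (adjusted p = 0.655) and was above background on 3 of 4 polyp and 2 of 4 Apc normal arrays. Against wild-type tissue 7 of these 19 genes rose and 5 fell (background 27.5% and 32.8%). Those of smallest p were Tulp3 (1.65 ± 0.16, limma adjusted p = 5.75e-05), Prkacb (−1.20 ± 0.13, 0.000103) and the kinase gene Stk36 (0.55 ± 0.07, 0.000232).

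Of 9 genes known to respond to Hedgehog signals in other settings, 5 rose and 1 fell in polyps relative to Apc normal tissue (background 20.6% and 24.9%). Wnt5a, a mesenchymal Wnt ligand, stood at −0.04, 0.56, 0.89 and 0.21 in polyps and at −1.72, −1.38, −2.02 and −1.61 in Apc normal tissue, and was 4.25-fold higher (2.09 ± 0.23, limma adjusted p = 0.000282). The cell cycle gene Ccnd1 was 2.43-fold higher (1.28 ± 0.12, adjusted p = 0.000168), and the growth regulator Mycn was 3.80-fold higher (1.93 ± 0.26, adjusted p = 0.000717). Ccnd1 and Mycn also answer to other pathways, among them Wnt signalling. The mesenchymal genes Foxl1 and Bmp4 were higher by 1.13 and 0.47 (adjusted p = 0.0196 and 0.0417). The Foxl1 call was lost without the polyp or the normal array of mouse 103. The Bmp4 call held in 9 of 22 alternative fits, and was lost with the mouse as a block and without the polyp of mouse 106 or 107 or any 1 of the Apc normal arrays.

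The response gene that fell was Myocd, the coactivator that drives smooth muscle genes. It stood at −5.17, −5.74, −5.25 and −5.23 in polyps and at −3.01, −2.52, −2.39 and −2.48 in Apc normal tissue, and was 6.72-fold lower (−2.75 ± 0.18, limma adjusted p = 5.46e-05), or 2.80-fold lower after normexp and quantile normalization. The forkhead genes Foxf1 and Foxf2, direct Hedgehog targets of gut mesenchyme, had differences of −0.24 ± 0.19 and 0.10 ± 0.27 that did not pass (adjusted p = 0.336 and 0.780). Against wild-type tissue 4 of these 9 genes rose and 1 fell (background 27.5% and 32.8%). They included Ccnd1 (1.20 ± 0.11, limma adjusted p = 4.25e-05), Mycn (1.66 ± 0.21, adjusted p = 0.000236), Wnt5a (3.99-fold higher, adjusted p = 0.00143) and Myocd (−3.18 ± 0.19, adjusted p = 8.08e-06).

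Between Apc normal and wild-type tissue, 0 of the 39 pathway genes passed limma's test (background 0.244%). An unadjusted p under 0.05 was seen for 12 of the 39, a larger share than the 17.2% of all tested genes. That difference in share was not tested. With all 12 arrays in 1 fit, 1 passed, and with slide as a random block 2 passed, Stk36 and Spop. That block does not separate slide from genotype, since no slide held both genotypes, and its estimated correlation within a slide was −0.0814. The other detected Stk36 probe had the opposite sign in this comparison (−0.26 against 0.38).

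Markers of the cells that send and receive Hedgehog signals moved on the same arrays. The marker counts below stand against 20.6% of all tested genes that rose and 24.9% that fell in polyps relative to Apc normal tissue. All 10 smooth muscle markers fell in polyps against Apc normal tissue, with a median difference of −3.62, Smtn at −2.44 ± 0.16 and Mylk at −2.92 ± 0.20, or −1.84 and −1.68 with the mean over their probes. A summed level here is the log2 of the sum of a list's linear levels on an array. The brightest probes therefore weigh most in it, and it does not stand for every marker of the list. For smooth muscle it was 4.92 to 5.89 in polyps, 8.28 to 8.73 in Apc normal tissue and 8.82 to 9.30 in wild-type tissue. Lmod1 was detected in 0 of 4 polyps. Of 10 enteric neuron and glia markers 9 fell, among them Snap25 (−2.01 ± 0.20), with summed levels of 3.32 to 3.97 in polyps, 5.37 to 6.02 in Apc normal tissue and 5.28 to 6.09 in wild-type tissue. These sums were close to the level of Snap25 alone, whose means were 3.59, 5.60 and 5.47 in the same order. The part of these differences in the falls of Hhip, Gli1, Gli3 and Myocd was not tested.

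Fibroblast markers, of which 3 rose and 3 fell among 10, had summed levels of 6.18 to 6.86 in polyps, 6.09 to 7.01 in Apc normal tissue and 6.10 to 6.99 in wild-type tissue. These ranges overlapped, but the sum is weighted to the brightest marker, Dcn (mean 5.47 in polyps and 5.50 in Apc normal tissue). The 3 that fell, Lum (−2.26), Dpt and Mfap5 (−2.67), did so without overlap and weigh little in it. Vim, a mesenchymal filament gene, rose by 1.31 ± 0.13 and the dermatopontin gene Dpt fell by 2.47. On the sender side, 8 of 9 differentiated colonocyte markers fell, among them Slc26a3 (−5.31 ± 0.42) and Muc3 (−2.54 ± 0.23). Their summed level was 6.33 to 7.32 in polyps, 9.17 to 10.16 in Apc normal tissue and 9.60 to 9.97 in wild-type tissue. The part of these markers in the fall of Ihh was not tested.

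General epithelial markers differed less: 6 of 9 fell, Krt19 by 0.71 and Krt8 by 0.58, and their summed level was 8.73 to 8.95 in polyps, 9.24 to 9.48 in Apc normal tissue and 9.20 to 9.53 in wild-type tissue. Of 7 endothelial markers 1 rose, Cdh5 (1.08 ± 0.21), and 1 fell, Tek (−0.50 ± 0.16), with summed levels of 3.89 to 4.15 in polyps, 3.67 to 4.85 in Apc normal tissue and 3.74 to 4.62 in wild-type tissue. These sums were close to the level of the brightest marker, Kdr, whose means were 3.82, 4.14 and 4.23 in the same order. Of 5 macrophage markers 2 rose, Cd68 (1.01 ± 0.32) and Lyz2 (1.13 ± 0.39), with summed levels of 4.46 to 5.35 in polyps, 3.87 to 5.08 in Apc normal tissue and 3.90 to 4.37 in wild-type tissue.

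**Figure D5:**
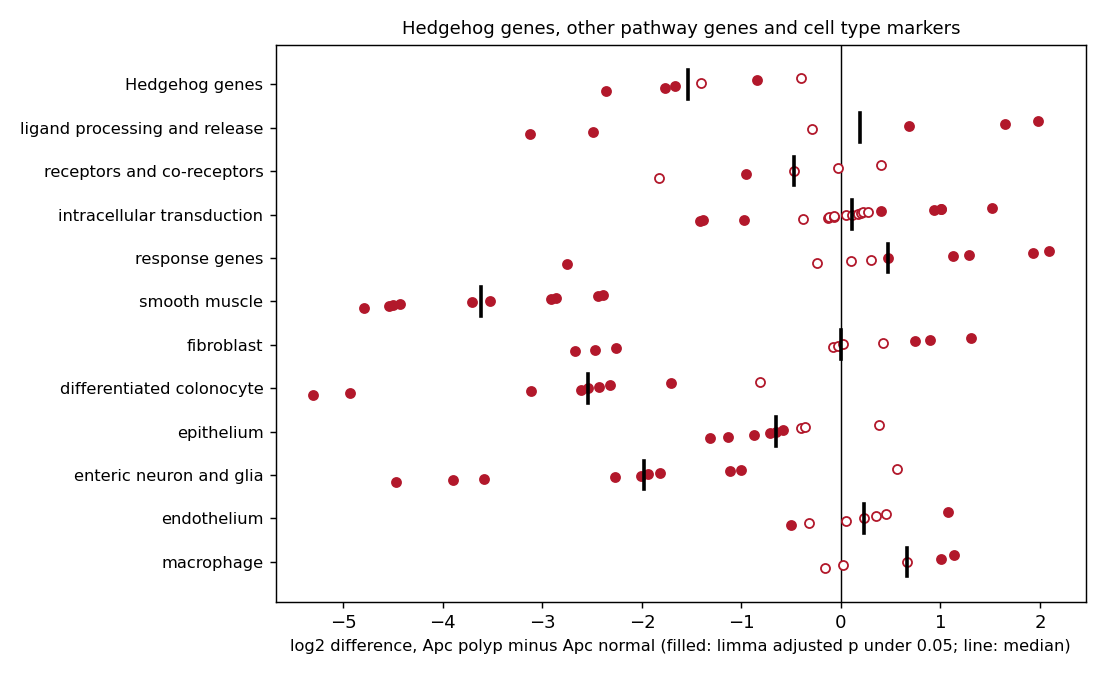
Log2 difference, Apc polyp minus Apc normal (x axis), of the tested genes of each list (rows): the 6 tested Hedgehog genes, the 4 lists of other pathway genes and the 7 lists of cell type markers. Points are genes, filled where limma's adjusted p was under 0.05, and the vertical line is the median of the list. Smo is drawn from its brighter probe. The medians are −1.54 for the Hedgehog genes, −3.62 for smooth muscle and −2.54 for differentiated colonocytes, while the 4 other pathway lists have medians between −0.47 and 0.47.

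Promoters of Hhip and Ptch1 are shown because both genes are taken as direct targets of Gli proteins, yet in polyps Hhip fell and Ptch1 did not pass the test. The sequences are RefSeq's (GRCm38.p6), from 250 bases before to 30 bases after the gene start, and capitals mark CG pairs, of which Hhip has 29 and Ptch1 has 46.
Hhip, chr8:80057979-80058258, minus strand: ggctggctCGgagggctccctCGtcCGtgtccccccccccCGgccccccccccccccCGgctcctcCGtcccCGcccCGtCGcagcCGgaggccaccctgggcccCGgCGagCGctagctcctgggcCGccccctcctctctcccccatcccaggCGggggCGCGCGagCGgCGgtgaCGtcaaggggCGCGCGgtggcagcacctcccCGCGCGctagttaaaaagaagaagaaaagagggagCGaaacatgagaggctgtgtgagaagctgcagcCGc
Ptch1, chr13:63565706-63565985, minus strand: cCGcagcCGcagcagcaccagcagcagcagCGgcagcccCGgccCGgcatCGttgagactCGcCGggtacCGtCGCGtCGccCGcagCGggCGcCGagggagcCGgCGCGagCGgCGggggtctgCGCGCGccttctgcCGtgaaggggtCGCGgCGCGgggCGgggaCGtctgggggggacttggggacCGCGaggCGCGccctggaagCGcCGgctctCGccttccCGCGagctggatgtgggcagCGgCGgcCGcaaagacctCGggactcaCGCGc
Promoters were matched for 6 of the 8 Hedgehog genes. The Gli site GACCACCCA, searched on both strands over 300 bases, was found in 0 of these 6, and 0.253% of the 32851 promoters of the table hold it. Its core ACCACCC, which lies within that site, was found in 1 of the 6, that of Gli2, and in 4.61% of all promoters. Between 17 and 47 CG pairs lay in the 300 bases of the 6 promoters, against a median of 7 over all promoters. A match describes letters only, and no match says nothing of binding outside these windows.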

How the data were processed

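RNA of 12 colorectal samples was measured on single-colour Agilent mouse arrays. The deposited spot intensity was written by Agilent's Feature Extraction software, version 10.7.3.1 per the file headers, as a background-subtracted processed signal on a linear scale, with flags for spots well above background. How the authors made the deposited value table, a linear ratio, is not stated in the labels or headers: on every array at least 99.82% of values were within 1% of a fixed multiple of the scanner signal, its column medians were 0.9999 to 1, and it was used on a log2 scale as an alternative only. Here control spots and spots with an outlier flag (1403) were dropped, log2 signals were averaged over the spots of a probe, and each array's 75th percentile was subtracted. Of 39429 probes, 39350 had a value on every array. For naming, 27508 probes matched a RefSeq table (GRCm38.p6) by accession, 3544 by symbol and 404 by synonym, and 7973 kept the file's name. The brightest probe stood for a gene. Among 38 other detected probes of the pathway and marker genes, 1 had the opposite sign by over 0.5 in polyps against Apc normal tissue (Gas1), as had 3 in each of the other comparisons. The Hedgehog genes are not in that count, and the second Smo probe had the opposite sign in polyps against both normal groups.

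Every comparison was fitted on the 8 arrays of its groups with limma 3.58.1 (R 4.3.3, lmFit and eBayes, two-sided, Benjamini-Hochberg), which was also tested on simulated data. Groups and mouse numbers come from the sample titles. Samples of a group are separate mice, and polyp and normal arrays that share a mouse share an animal. Across genes, their deviations from the mean of their group had a correlation of 0.455 (mouse 103), 0.170 (106), 0.142 (107) and 0.283 (110), against −0.329 to 0.193 for different mice. For a bound, each array of the dimmer group took its lowest detected level (−6.60 to −5.17), or the probe's own level where higher, and the mean of these was set against the mean of the brighter group. Arrays of the brighter group kept their own levels, which for Shh included the polyp of mouse 107, not well above background. The Hedgehog genes, the pathway and marker lists and the tests were chosen with earlier results of these data known. Named were the 8 Hedgehog genes, per pathway list and comparison the 3 called genes of smallest p and those against the majority, per marker list 2 genes of smallest p (1 of them is not reported here), and 3 genes most like Ihh and Gli1. Dhh, Disp1, Iqce, Arrb2, Ift88, Foxl1, Bmp4, Foxf2, Sufu, Dcn, Lum, Mfap5, Kdr and the calls a setting changed were named after their values were seen. The alternatives were other scalings (median, quantile), normexp with an offset of 50, the value table, other filters, a variance trend, 1 fit of all 12 arrays, the mean over a gene's probes, slide and mouse blocks, each slide alone, each array left out and, chosen after seeing the data, the second Smo probe.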

Additional observations from a re-analysis of the deposited data

Results flagged for a closer look

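Among 24 groups of 4 arrays (8 Hedgehog genes in 3 groups), 3 held an array that stood apart from the other 3 by Dixon's criterion, which chance alone meets in about 1 of 20 groups. Ihh was high in the Apc normal array of mouse 103, at 3.48, against 2.48 to 2.63 on the other Apc normal arrays. The brighter Smo probe was high in the polyp of mouse 110, at 2.29, against 1.63 to 1.67 in the other polyps, while the second Smo probe was lowest there (1.62). Gli1 was low in the wild-type array of mouse 108, at −3.33, against −2.35 to −2.28 on the other wild-type arrays. On that array Hhip was also the lowest of its group (−1.74). The fibroblast sum, weighted to Dcn, was the lowest of the wild-type group there (6.10), and the neuron and glia sum the highest (6.09). The latter mostly reflects Snap25, whose highest wild-type level was 6.00. The smooth muscle sum (8.88) lay within the group's range.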

How the results depend on the processing

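Ihh, Hhip, Gli1 and Gli3 kept their sign in polyps under every alternative run (23 against Apc normal and 19 against wild-type tissue), and Hhip kept its call in all of them (adjusted p at most 0.0398). The calls that ended were those of Ihh within slide 2 alone (adjusted p = 0.0660) and of Gli1 and Gli3 within slide 3 alone (0.101 and 0.140), where only 2 arrays a tissue enter. Smo reversed with its second probe, to 0.62 against Apc normal and 0.36 against wild-type tissue. On the brighter probe it passed against Apc normal tissue with median scaling (0.0448), the value table (0.0444), the replicate block for mouse (0.0469) or with normal tissue of Apc mouse 103 (0.0326) or 107 (0.0305) left out, and missed against wild-type tissue with all 12 arrays in 1 fit (0.0542). Of the other Hedgehog and pathway calls, the mouse pairing ended that of Bmp4 (0.0553) and gave those of Gas1 (0.0382) and Grk2 (0.0256). Normexp and quantile normalization shrank folds by over 1.5 times for Gli1 and Dhh, Disp2, Myocd and Scube2 in polyps against Apc normal tissue (log2 differences of −1.01, 1.16, −1.37, −1.48 and −1.93), and against wild-type tissue for these and for Gpc3 and Scube1, with all of these calls kept. Changes of sign of values past the test under neither setting were not counted as reversals. Called Hedgehog genes in polyps against Apc normal tissue numbered 4, or 2 within slide 3 alone, and 4 to 5 when 1 array was left out. Called pathway genes numbered 20, or 11 within slide 2 and 7 within slide 3 alone, and 17 to 20 when 1 array was left out. Of those 20, 5 passed under all 22 alternatives and 20 kept their sign. The share of all genes called within 1 slide, or with 1 array left out, is not given beside these counts. Between Apc normal and wild-type tissue, 0 Hedgehog genes passed under any alternative and 0 pathway genes when 1 array was left out, with 1 pathway gene with all 12 arrays in 1 fit and 2 with slide as a random block. Over all genes the 49 calls of that comparison ranged from 2 to 812. Against wild-type tissue, leaving out 1 array gave 4 to 5 Hedgehog and 22 to 25 pathway genes. Testing every gene moved the median of all genes in polyps against Apc normal tissue by −0.13, and no scaling moved it by over 0.1. Signals near background limit what can be said of Shh, Gli2 and Sufu.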
